A study of Mus musculus with 16 samples.

Results

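Transcripts of alveolar progenitors of the mouse mammary gland were compared between mice without Cpeb2 and wild-type mice. The members are the arrays whose source label is alveolar progenitors, 4 of the 16 in the series, with 2 from Cpeb2 -/- and 2 from Cpeb2 +/+ females. All mice were Sox2-Cre +/+, aged 10 weeks and 2 days, of the line DMI and of the strain given as C57BL/6J 129, so that the Cpeb2 +/+ mice called wild type also carried the Cre, and mice lacking it were not analysed here. Sox2-Cre is active in the early embryo, so a gene it deletes is lost throughout the body and not in the mammary epithelium alone. Each genotype was represented by 2 mice, and mouse 1 of each genotype shared both parents, as did mouse 2 of each genotype, which gives 2 parent pairs. Cells were freshly sorted, with no specific treatment, as Epcam high, CD49f low, Sca1-negative and CD49b-positive cells. The same 4 mice gave 3 further populations, which serve here only to show where alveolar progenitors differ: luminal cells labelled non-clonogenic, which carry Sca1 without CD49b, ductal progenitors, which carry both, and myoepithelial cells, sorted as low in Epcam and high in CD49f.

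CPEB2 belongs to a family of RNA-binding proteins that attach to cytoplasmic polyadenylation elements in messenger RNAs and regulate poly(A) tails and translation. A change that it causes in translation would not be read by an expression array, which measures the amount of RNA. Alveolar progenitors are the luminal cells, low in estrogen receptor, from which the milk-secreting alveoli form, and they divide in response to paracrine signals such as RANKL and Wnt ligands that hormone-sensing neighbours release. The series title places the work in a question about Cpeb2, RANKL and mammary development. A dividing cell first loads the MCM helicase onto replication origins, then copies its DNA in S phase, and later expresses a separate set of genes for mitosis. E2F factors are known for controlling the first group of genes, and the DREAM and MuvB complexes act through a promoter element called CHR on many genes of the second.

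Values are log2 expression values per probe set, and a difference is the mean of the knockout arrays minus the mean of the wild-type arrays on that scale, given with the fit's standard error, so that a difference of 1 is a 2-fold change. The 4 arrays held values from 3.52 to 13.45 with medians from 6.37 to 6.39, and any pair of them correlated over all probe sets with r from 0.981 to 0.991. With 2 arrays in each genotype, their number sets the precision. Markers of the alveolar lineage were high where the label places them. The log2 level of Elf5, a transcription factor of the alveolar lineage, was 11.37 and 11.61 in wild type and 11.13 and 11.49 in knockout, against 5.94 to 6.86 in non-clonogenic luminal and myoepithelial cells and 7.66 to 10.27 in ductal progenitors. Kit, a receptor of luminal progenitors, had log2 levels of 10.50 to 11.08 in alveolar progenitors, of 6.73 to 9.07 in ductal progenitors and of 4.41 to 4.67 in the other populations. Foxa1, a factor of hormone-sensing cells, lay at log2 levels of 5.93 to 7.61 in alveolar progenitors, against 10.60 to 11.15 in non-clonogenic luminal cells, and it was highest in wild-type and knockout mouse 1, which share parents. Of the leukocyte marker genes, 1 of 23 was called, against 0.62% of all genes. Ptprc, which all leukocytes carry, had a log2 level of 3.82 to 3.96. None of the 14 endothelial, 13 fibroblast, 13 myoepithelial or 4 red cell markers measured was called. The mean log2 level of the red cell markers was 8.91 and 8.86 in wild type and 8.67 and 8.65 in knockout, and the part that this played in the results was not tested. The 3′ probe set of Gapdh exceeded its middle one by 0.14 and 0.18 in wild type and by 0.49 and 0.23 in knockout on the log2 scale, and for Actb these differences were -0.04 and 0.03 against 0.04 and -0.02. The part of RNA quality was not tested either.

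The deleted gene itself was close to the lower limit of the arrays in these cells. The Cpeb2 probe set with the highest signal had log2 levels of 5.52 and 5.53 in the wild-type mice and of 5.45 and 4.81 in the knockout mice. Only knockout mouse 2 lay clearly below wild type, and the log2 difference of -0.39 ± 0.41 (SE, adjusted p = 0.945 over all probe sets) did not pass the test. The other probe sets gave log2 levels of 4.68 and 4.77 against 4.45 and 4.44, and of 4.38 and 4.37 against 4.33 and 4.22, with log2 differences of -0.28 ± 0.33 and -0.10 ± 0.32. On these arrays the lower quartile of the values was 5.10 to 5.14, so the genotype labels could not be checked from Cpeb2 in these cells. The same mice could be compared in the Sca1-positive populations, where its log2 level was 8.33 and 8.66 in wild type against 6.42 and 7.67 in knockout for non-clonogenic luminal cells, and 7.88 and 8.00 against 6.39 and 7.35 for ductal progenitors. Both knockout mice lay below both wild-type mice there, knockout mouse 2 kept a high level, and the log2 differences of -1.45 and -1.08 did not pass (adjusted p = 0.0933 and 0.113). Where the probes lie with respect to the deletion was not analysed here. Among the other family members, Cpeb4 had log2 levels of 6.82 and 8.02 in wild type and 8.52 and 8.48 in knockout, a log2 difference of 1.08 ± 0.38 that did not pass (adjusted p = 0.387 over all probe sets). Cpeb1 lay between 4.09 and 4.27 and the probe set of Cpeb3 with the highest signal between 7.32 and 7.77 on the log2 scale, and the genotypes overlapped for Cpeb3. None of the 4 family members was called, and their median log2 difference was 0.05. Of the 200 measured genes nearest to Cpeb2 in the order of the RefSeq annotation of GRCm38.p6, 2 were called in these cells, a share of 1% that is near the 0.62% of all genes called. They were Tyms, described below, and Plb1, a phospholipase, which is named here after its values were seen and had a log2 difference of -1.01 ± 0.20 (adjusted p = 0.0473), or -0.52 for the mean of its probe sets (adjusted p = 0.0970).

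Genes of DNA replication were among those that fell furthest in alveolar progenitors without Cpeb2, and genes of ion transport, secreted defence proteins and matrix were among those that rose. Of 17097 genes tested, 106 passed an adjusted p under 0.05, which is 0.62% of all genes, and 46 of them rose (0.269%) and 60 fell (0.351%). A change of 2-fold or more was found in 35 of the genes that rose and 46 of those that fell. In all 106 the genotypes did not overlap and both parent pairs moved the same way. That pattern alone was common, because both knockout arrays lay above both wild-type arrays for 20.7% of all genes and below them for 23.4%, and 60.2% of all genes had the same sign in both pairs. The median log2 difference of all genes was 0.0015, and 49.5% of them had a lower mean in knockout. The gene lists below were chosen with earlier results of these data known, so their counts of called genes are descriptions and not tests. Over all 45037 probe sets other than controls, 143 were called (0.318%), 63 higher and 80 lower. For 40 of the called genes the array carried 59 further probe sets, of which 55 had the same direction, 12 were called and 0 were called in the opposite direction. The count rests strongly on single mice: without knockout mouse 1 the test called 3 genes, without knockout mouse 2 it called 23, and without wild-type mouse 1 it called 315.

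**Figure D1:**
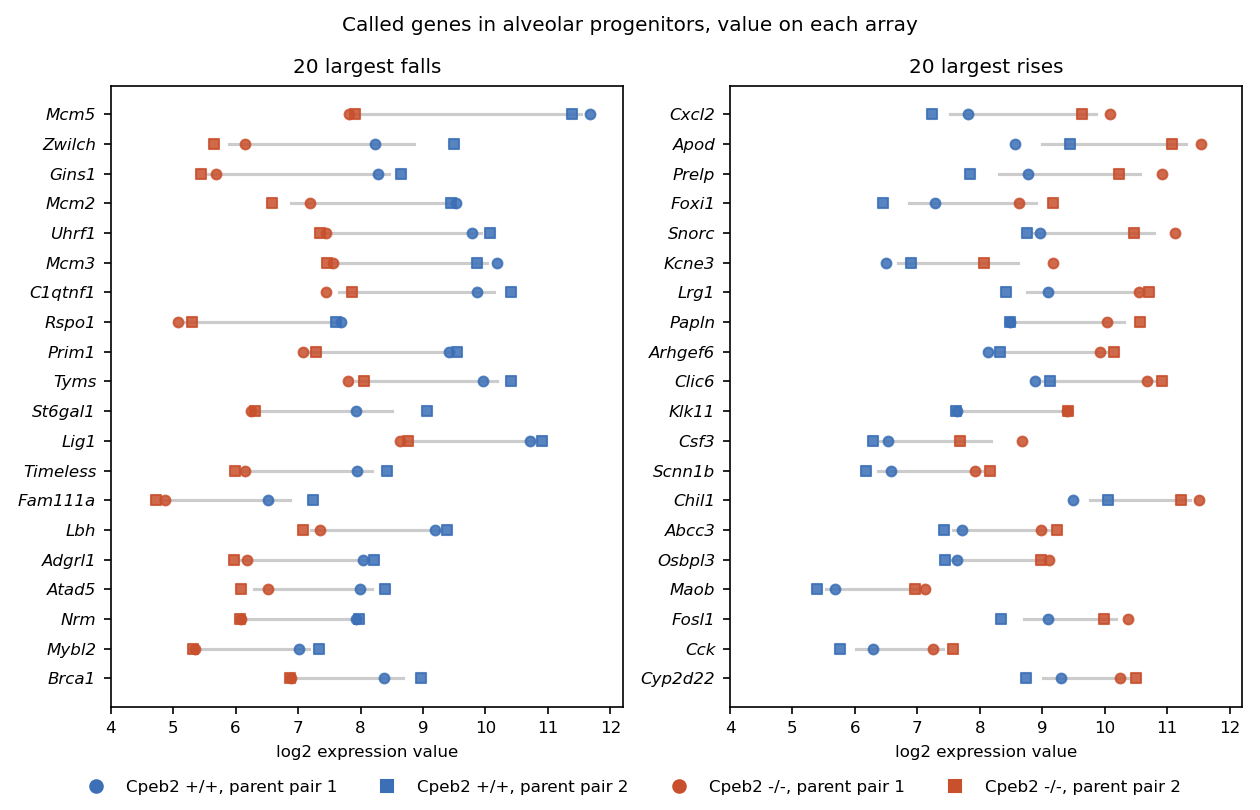
Log2 expression value on each of the 4 alveolar progenitor arrays for the 20 named called genes with the largest falls (left) and the 20 with the largest rises (right). Blue points are Cpeb2 +/+ and orange points Cpeb2 -/-, circles are parent pair 1 and squares parent pair 2, and the grey line joins the genotype means. The genotypes do not overlap for any gene shown, and Mcm5 has the longest line, from a mean near 11.5 to one near 7.9.

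Genes that load and activate the replicative helicase were among those that fell. The largest fall of any gene was that of Mcm5. Mcm5, a subunit of the MCM ring that unwinds DNA at the fork, had log2 levels of 11.68 and 11.39 in the wild-type mice and 7.81 and 7.91 in the knockout mice. It fell by 3.67 ± 0.47 on the log2 scale, or 12.8-fold (adjusted p = 0.00442). Its other probe set lay below the lower quartile on all 4 arrays, with log2 levels of 4.49 to 4.76, and the mean of both gave a log2 difference of -1.92 (adjusted p = 0.00630). Both knockout mice lay far below both wild-type mice, and the parents made little difference. Mcm2 and Mcm3, of the same ring, went from log2 levels of 9.53 and 9.46 to 7.20 and 6.59, and from 10.19 and 9.86 to 7.56 and 7.46. Their log2 differences were -2.60 ± 0.45 and -2.52 ± 0.43 (adjusted p = 0.0238 for each). Gins1 and Gins2 encode parts of the GINS complex, which joins the ring to make the active helicase. For Gins1 the log2 levels were 8.28 and 8.64 in wild type and 5.69 and 5.44 in knockout, a log2 difference of -2.90 ± 0.40 (adjusted p = 0.00618). Gins2 went from log2 levels of 10.20 and 10.05 to 8.32 and 8.46, with a log2 difference of -1.74 ± 0.25 (adjusted p = 0.00903). In the list of 27 measured genes of origin licensing and the helicase, these 5 were called lower and 0 higher, against 0.351% of all genes called lower. The median log2 difference of the list was -0.81. A lower mean in knockout was found in 26 of its genes, against 49.5% of all genes. The remaining ring subunits Mcm4, Mcm6 and Mcm7 had log2 differences of -2.17 ± 0.47, -1.79 ± 0.43 and -1.10 ± 0.25, with adjusted p from 0.0685 to 0.105, and did not pass. In bulk RNA, fewer cells in S phase and less of these RNAs in each cell cannot be told apart.

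Promoters of Mcm5, Mcm3 and the DNA synthesis gene Atad5 are shown as examples that held E2F-type letters, which were frequent in their lists. RefSeq windows of 300 bases around a gene's start (GRCm38.p6) were searched on both strands for the E2F-type letters TTTCCCGC, TTTGGCGC, TTTCGCGC and TTTGCCGC, which were printed in capitals where they matched. A window in which matches overlap shows them as 1 longer run of capitals, as in Mcm5.
Mcm5, chr8:75109259-75109558, plus strand: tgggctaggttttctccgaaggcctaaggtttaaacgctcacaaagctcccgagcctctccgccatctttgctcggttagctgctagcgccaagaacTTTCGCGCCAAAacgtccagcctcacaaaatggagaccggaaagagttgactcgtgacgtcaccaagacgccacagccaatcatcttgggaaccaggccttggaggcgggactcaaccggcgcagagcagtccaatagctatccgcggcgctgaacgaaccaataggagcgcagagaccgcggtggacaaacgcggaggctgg
Mcm3, chr1:20820263-20820562, minus strand: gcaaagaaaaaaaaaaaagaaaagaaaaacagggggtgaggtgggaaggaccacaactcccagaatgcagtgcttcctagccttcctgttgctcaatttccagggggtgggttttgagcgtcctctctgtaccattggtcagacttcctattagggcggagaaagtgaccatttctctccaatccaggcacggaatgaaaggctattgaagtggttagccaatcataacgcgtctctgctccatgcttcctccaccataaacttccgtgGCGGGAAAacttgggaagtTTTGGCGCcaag
Atad5, chr11:80089150-80089449, plus strand: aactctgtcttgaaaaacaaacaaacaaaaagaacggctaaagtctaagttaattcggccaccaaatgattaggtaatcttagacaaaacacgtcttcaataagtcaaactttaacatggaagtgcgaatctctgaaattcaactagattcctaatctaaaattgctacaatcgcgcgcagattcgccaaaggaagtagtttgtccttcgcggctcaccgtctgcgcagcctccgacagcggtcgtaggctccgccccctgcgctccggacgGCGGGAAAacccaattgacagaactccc
Mcm5 and Mcm3 each held 2 matches and Atad5 held 1. At least 1 such match was found in 11 of 26 windows of the origin licensing list (42.3%), 13 of 43 of the DNA synthesis list (30.2%), 10 of 34 of the E2F and cell cycle entry list (29.4%) and 8 of 32 of the DNA repair list (25%). The share was 3.19% of the 17065 windows of all genes tested and 2.26% of all 32851 windows. Of the windows of genes called lower it was 13 of 71 (18.3%), and of those called higher 2 of 43 (4.65%). The windows of Mcm2, Tyms, Prim1, Timeless and Mybl2 held none of these letters, and Gins1 and Gins2 had no window to search. A match describes the letters of the window and is not evidence of binding.

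Genes of DNA synthesis fell with the helicase. Uhrf1, which carries DNA methylation through replication, had log2 levels of 9.78 and 10.07 in wild type and 7.45 and 7.35 in knockout, a log2 difference of -2.53 ± 0.40 (adjusted p = 0.0145). Prim1, the catalytic primase subunit, went from 9.42 and 9.54 to 7.07 and 7.29 on the log2 scale and differed by -2.30 ± 0.45 (adjusted p = 0.0457). Tyms, the thymidylate synthase that makes a DNA precursor, had log2 levels of 9.97 and 10.41 against 7.80 and 8.06, a log2 difference of -2.26 ± 0.39 (adjusted p = 0.0235). The other probe sets of Tyms had log2 levels of 4.45 to 5.54, and the mean of all of them gave a log2 difference of -0.64 that did not pass (adjusted p = 0.232). For Uhrf1, Prim1 and the Tyms probe set with the highest signal the spread within a genotype was small against the gap between genotypes. Lig1, the ligase that joins Okazaki fragments, fell from log2 levels of 10.72 and 10.90 to 8.63 and 8.76, a log2 difference of -2.11 ± 0.38 (adjusted p = 0.0300). Timeless, which protects the replication fork, fell from 7.94 and 8.42 to 6.15 and 5.99, a log2 difference of -2.11 ± 0.25 (adjusted p = 0.00282). Atad5, which is known in human cells for unloading PCNA from DNA, went from log2 levels of 7.99 and 8.40 to 6.51 and 6.08, a log2 difference of -1.89 ± 0.23 (adjusted p = 0.00282). In the list of 42 measured genes of DNA synthesis and S phase, these 6 were called lower and 0 higher, against 0.351% of all genes called lower. The median log2 difference of the list was -1.35. In 40 of its genes both knockout mice lay below both wild-type mice, against 23.4% of all genes. Rrm2, a subunit of ribonucleotide reductase, had log2 levels of 8.19 and 8.97 against 5.87 and 6.02 and did not pass (-2.64 ± 0.55, adjusted p = 0.0633). Pcna, the clamp of the DNA polymerases, had a log2 difference of -0.87 ± 0.28 that did not pass (adjusted p = 0.265).

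Genes of mitosis had lower means in knockout, but the wild-type mice differed from each other in them. Of 63 measured genes of mitosis and cytokinesis, 61 had a lower mean in knockout and the median log2 difference was -1.18. But only Zwilch was called, against 0.351% of all genes called lower. Zwilch, a part of the RZZ complex of the kinetochore, had log2 levels of 8.23 and 9.49 in wild type and 6.16 and 5.65 in knockout, a log2 difference of -2.96 ± 0.59 (adjusted p = 0.0473). Wild-type mouse 1 lay below wild-type mouse 2 in 62 of the 63 genes. The median log2 difference of the list was accordingly -0.28 in parent pair 1 and -2.15 in parent pair 2, and a difference below -1 was found in 5 genes in pair 1 and in 54 in pair 2. Top2a, the topoisomerase that untangles chromosomes, had log2 levels of 7.0 and 9.09 in wild type and 6.18 and 5.88 in knockout, and its log2 difference of -2.02 ± 0.64 did not pass (adjusted p = 0.252). For Mki67, the usual marker of dividing cells, the log2 levels were 7.98 and 10.30 against 7.91 and 6.53, and the log2 difference was -1.92 ± 0.79 (adjusted p = 0.447). The kinesin Kif11, which separates the spindle poles, showed the same order with log2 levels of 7.02 and 9.19 against 6.43 and 6.20 (log2 difference -1.79 ± 0.68, adjusted p = 0.380). For DNA synthesis, wild-type mouse 1 also lay below wild-type mouse 2, in 36 of 42 genes, but the medians of the pairs were closer, at -1.19 in pair 1 and -1.50 in pair 2. The origin licensing list had medians of -0.61 and -1.20.

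Mitotic promoters are printed to set beside the S-phase ones, since CHR letters were frequent in them. The windows were searched for the CHR letters TTTGAA on both strands, which are in capitals.
Top2a, chr11:99024140-99024439, minus strand: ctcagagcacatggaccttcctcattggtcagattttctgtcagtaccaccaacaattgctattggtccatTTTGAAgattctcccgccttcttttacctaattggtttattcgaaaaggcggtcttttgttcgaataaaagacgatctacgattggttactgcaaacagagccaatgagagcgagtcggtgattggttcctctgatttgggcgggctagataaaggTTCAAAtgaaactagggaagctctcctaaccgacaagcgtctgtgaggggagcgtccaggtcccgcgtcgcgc
Kif11, chr19:37376132-37376431, plus strand: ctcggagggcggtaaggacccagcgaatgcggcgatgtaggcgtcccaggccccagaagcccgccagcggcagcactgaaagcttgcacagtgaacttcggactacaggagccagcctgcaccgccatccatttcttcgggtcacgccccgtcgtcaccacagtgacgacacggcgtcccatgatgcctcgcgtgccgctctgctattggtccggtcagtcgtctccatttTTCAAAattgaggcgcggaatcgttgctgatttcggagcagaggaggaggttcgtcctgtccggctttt
Top2a held 2 matches and Kif11 held 1. CHR letters were found in 42 of 60 windows of the mitosis list (70%), against 6 of 26 of the origin licensing list (23.1%), 5 of 43 of the DNA synthesis list (11.6%) and 13.4% of the windows of all genes tested. E2F-type letters were found in 5 of the 60 mitotic windows (8.33%). CHR letters also occurred in 9 of 34 windows of the cell cycle entry list (26.5%), and in 5 of 71 windows of the genes called lower (7.04%). No test was made of a relation between these letters and the differences.

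**Figure D2:**
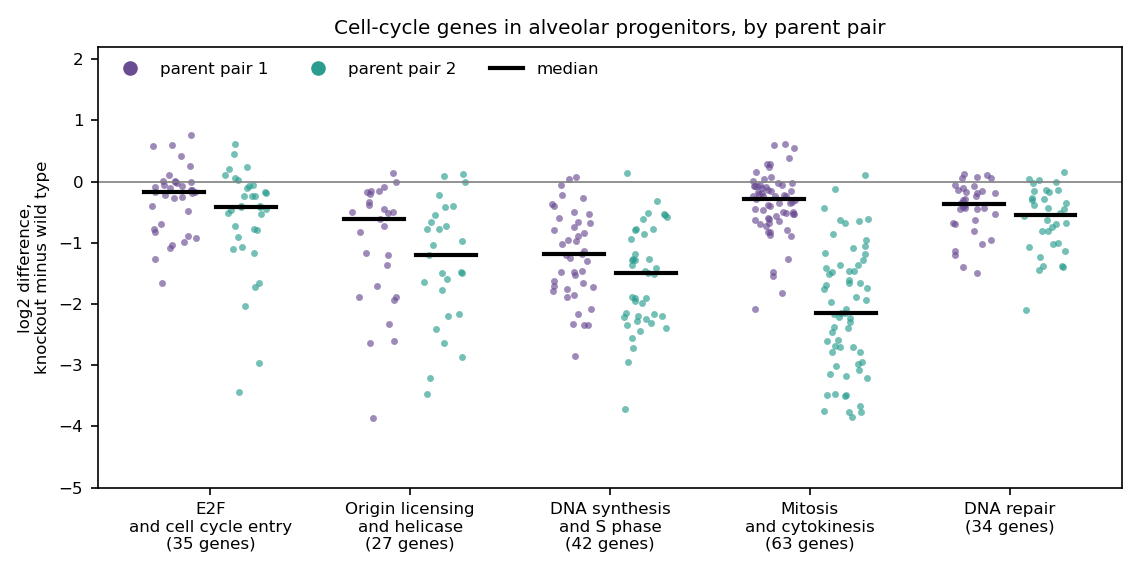
Log2 difference, knockout minus wild type, of each measured gene of the cell-cycle lists in alveolar progenitors, with parent pair 1 in purple and parent pair 2 in green. Each point is a gene and each black bar the median of the list in that pair. The mitosis list has medians of -0.28 in pair 1 and -2.15 in pair 2, whereas the DNA synthesis list has -1.19 and -1.50.

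Regulators of cell cycle entry moved less. In the list of 35 measured genes, 2 were called lower and 0 higher, against 0.351% of all genes called lower. The median log2 difference of the list was -0.32. Mybl2, a MYB factor that acts with the MuvB complex, had log2 levels of 7.01 and 7.34 against 5.36 and 5.32 and fell by 1.84 ± 0.22 on the log2 scale (adjusted p = 0.00282). E2f2, an activating E2F, fell from 6.84 and 7.01 to 6.02 and 5.93, a log2 difference of -0.95 ± 0.18 (adjusted p = 0.0427). Neither Cdk1, the mitotic kinase, nor Ccna2, its partner cyclin A2, passed, with log2 differences of -2.02 ± 0.57 and -2.16 ± 0.66 and wild-type mouse 1 below wild-type mouse 2 in each. The inhibitor Cdkn1a had a log2 difference of 0.33 ± 0.39 (adjusted p = 0.945), and 0 of 26 measured p53 targets were called (median log2 difference -0.04). Of 34 measured DNA repair genes, 4 were called lower and 0 higher, against the same 0.351% of all genes, with a median log2 difference of -0.41. Brca1, which acts in repair by homologous recombination, had log2 levels of 8.38 and 8.97 in wild type and 6.88 and 6.87 in knockout, a log2 difference of -1.80 ± 0.26 (adjusted p = 0.0101). The damage kinase Atm, the Fanconi anaemia gene Fancg and the mismatch repair gene Msh6 had log2 differences of -1.20 ± 0.23, -1.11 ± 0.22 and -0.97 ± 0.19, and for Fancg the mean of its probe sets gave -0.72 and did not pass (adjusted p = 0.0888). None of 11 measured replication-dependent histone genes was called (median log2 difference -0.16).

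The fall in replication genes was shared in part with the other sorted populations. Mcm5, Mcm2, Lig1, Tyms and Atad5 were called lower in all 4, and they were the only called genes of alveolar progenitors of which that was true. Gins2 was called in none of the others (adjusted p = 0.180, 0.284 and 0.213), Gins1, Prim1 and Timeless were not called in myoepithelial cells, and Uhrf1 and Mcm3 were called in ductal progenitors but in neither of the other populations. The log2 difference of Mcm5 was -3.26 in non-clonogenic luminal cells, -3.13 in ductal progenitors and -3.15 in myoepithelial cells. For the DNA synthesis list the median log2 difference was -1.66, -1.57 and -0.68 in these 3 populations, against -1.35 in alveolar progenitors, and for the mitosis list it was -1.92, -1.88 and -0.93 against -1.18. The origin licensing list had medians of -1.09, -1.02 and -0.25 against -0.81. In these populations 9, 12 and 2 of its 27 genes were called, against 353, 1272 and 173 of all 17097 genes. These populations came from the same 4 mice, so they are not independent replicates of the effect. The order of the wild-type mice turned around between populations. Over the mitosis list, wild-type mouse 1 was below wild-type mouse 2 in 62 of 63 genes in alveolar progenitors and in 60 in myoepithelial cells, but in 5 in non-clonogenic luminal cells and in 10 in ductal progenitors. Over the DNA synthesis list the same was true of 36 and 37 of 42 genes, against 0 in each Sca1-positive population. The median log2 level of the mitosis list in alveolar progenitors was 6.83 and 8.20 in the wild-type mice and 6.52 and 6.16 in the knockout mice.

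The effect in alveolar progenitors was then compared with that in the other populations. For each gene the knockout effect in alveolar progenitors was set against the mean knockout effect of the other 3 populations in the same fit, and this difference of effects was called for 47 genes (0.275%), 34 of them with a higher effect in alveolar progenitors and 13 with a lower one. Of the 106 genes called in alveolar progenitors, 33 were also called in this test, 22 that rose and 11 that fell. Against single populations the count was 41 genes for ductal progenitors (0.24%), 44 for non-clonogenic luminal cells (0.257%) and 27 for myoepithelial cells (0.158%). Of the 47 genes, 21 were also called against ductal progenitors alone, 31 against non-clonogenic luminal cells and 17 against myoepithelial cells. Rspo1, C1qtnf1, Lbh, Shisa2, Fbn2, Foxi1, Kcne3, Scnn1b, Snorc, Chil1, Maob, Erbb4, Cp and Lcn2, described below, were among the genes that did not pass against ductal progenitors. In 11 of the 47 genes every array of at least 1 other population lay below its lower quartile, where a fall could hardly be read and the contrast also reflects where the gene is expressed, and Rspo1, Foxi1, Kcne3, Bcl2l15, Atp6v1c2 and Maob were among them. No gene of origin licensing, DNA synthesis or mitosis was called in the test against the mean of the other 3.

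Rspo1, an R-spondin that binds LGR receptors and strengthens Wnt signals and is known as a product of luminal cells in the mouse mammary gland, was the clearest of the genes that fell. Its log2 level was 7.69 and 7.60 in the wild-type mice and 5.07 and 5.31 in the knockout mice, and both knockout mice lay near the lower quartile of the arrays. It fell by 2.45 ± 0.19 on the log2 scale (adjusted p = 0.000216). In ductal progenitors its log2 level was 6.06 and 5.21 in wild type and 4.44 and 4.44 in knockout, and in the remaining populations it was 4.30 to 4.55 in every sample. The effect in alveolar progenitors differed from the mean effect of the others by -2.05 ± 0.22 on the log2 scale (adjusted p = 0.00184), but from the effect in ductal progenitors, the 1 other population where it lay above the lower quartile in wild type, by -1.26 ± 0.27, which did not pass (adjusted p = 0.0820). Rspo1 was the only gene called among 57 measured genes of R-spondin and Wnt signalling, whose median log2 difference was 0.01. It was also the only gene called among 34 measured alveolar progenitor markers, against 0.62% of all genes called. In that marker list 24 genes had a higher mean in knockout, and the median log2 difference was 0.23. Lgr5, an R-spondin receptor, had log2 levels of 4.63 and 4.93 in wild type and 7.07 and 5.33 in knockout, and with the knockout mice far apart its log2 difference of 1.42 ± 0.44 did not pass (adjusted p = 0.240). The Wnt target Axin2 had a log2 difference of -0.28 ± 0.12 (adjusted p = 0.449).

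C1qtnf1, a secreted protein of the C1q and TNF-related family, had log2 levels of 9.86 and 10.40 in wild type and 7.45 and 7.87 in knockout. It fell by 2.48 ± 0.21 on the log2 scale (adjusted p = 0.000216). It was also called lower in ductal progenitors (log2 difference -1.44), while its log2 level lay between 6.13 and 6.50 in every non-clonogenic luminal and myoepithelial sample. The effect in alveolar progenitors minus that in ductal progenitors was -1.04 ± 0.29 and did not pass (adjusted p = 0.136). Of 21 measured genes of its family and of lipid carriers, C1qtnf1 was the 1 called lower and Apod the 1 called higher. Of all genes, 0.351% were called lower and 0.269% higher. The median log2 difference of the list was 0.06. Both Rspo1 and C1qtnf1 were therefore highest in wild-type alveolar progenitors among the wild-type populations, intermediate in wild-type ductal progenitors, and lower in knockout in both of these populations.

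**Figure D3:**
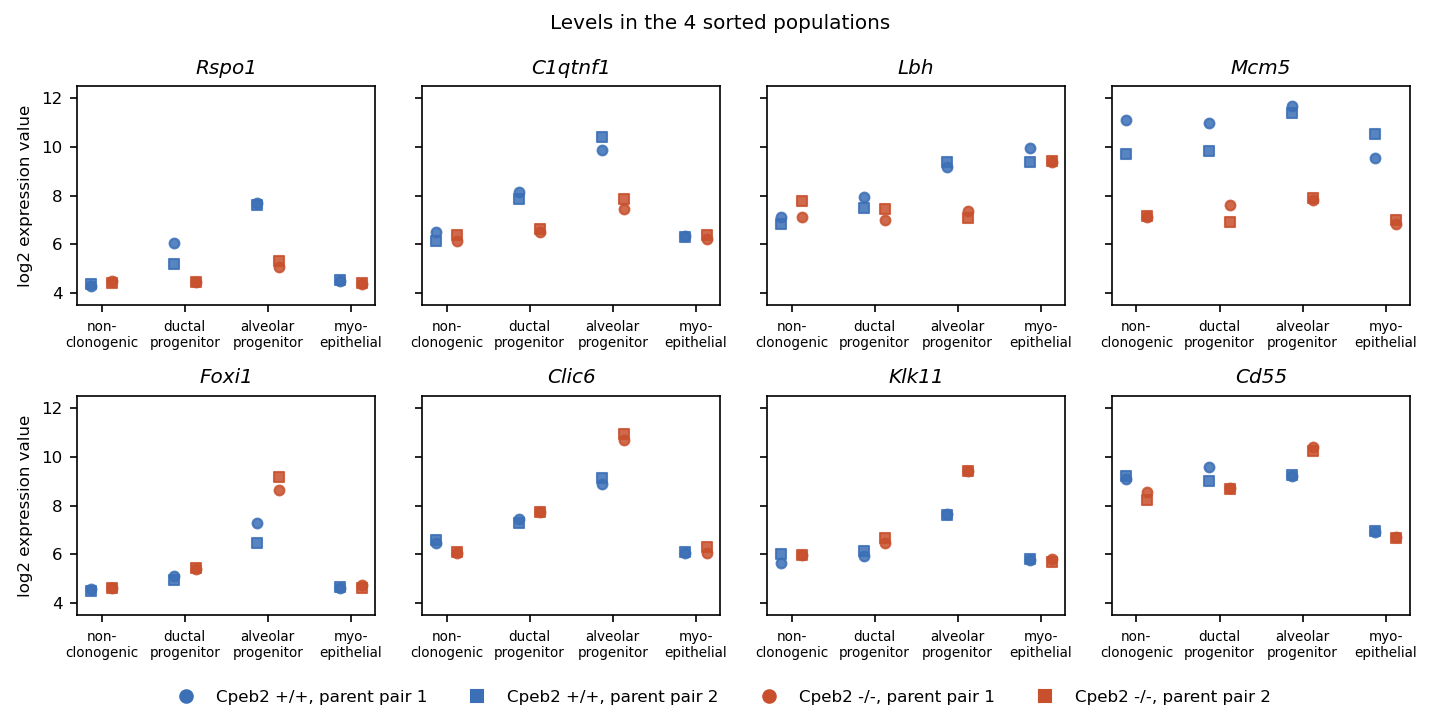
Log2 level of selected genes in each of the 16 samples, by sorted population, with blue points for Cpeb2 +/+ and orange points for Cpeb2 -/-, circles for parent pair 1 and squares for parent pair 2. Mcm5 is lower in knockout in every population, whereas Rspo1 separates in alveolar and ductal progenitors and the rise of Foxi1 stands in alveolar progenitors, where its log2 level is 8.62 and 9.18 in knockout.

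Other genes with a called difference from the mean of the other populations were lower in alveolar progenitors of knockout mice. Lbh, a transcription cofactor known as a Wnt target in mammary epithelium, had log2 levels of 9.19 and 9.39 in wild type and 7.35 and 7.08 in knockout, a log2 difference of -2.07 ± 0.27 (adjusted p = 0.00452). In myoepithelial cells Lbh lay between 9.37 and 9.95 in all 4 samples on the same scale. Adgrl1, an adhesion receptor of the latrophilin group, fell from log2 levels of 8.05 and 8.21 to 6.19 and 5.97, a log2 difference of -2.05 ± 0.22 (adjusted p = 0.00154), or -1.15 for the mean of its probe sets. In the other populations its log2 differences were -0.33, -0.24 and -0.33. Shisa2, which holds Frizzled and FGF receptors back in the endoplasmic reticulum, went from 8.81 and 9.06 to 6.93 and 7.45 on the log2 scale, a log2 difference of -1.74 ± 0.23 (adjusted p = 0.00548). Cnmd, the matrix protein chondromodulin, fell from 7.02 and 6.90 to 5.64 and 5.66, a log2 difference of -1.31 ± 0.11 (adjusted p = 0.00022). Fbn2, the microfibril protein fibrillin 2, went from log2 levels of 7.24 and 6.66 to 5.17 and 5.28, a log2 difference of -1.73 ± 0.22. Atp6v1c2, a subunit of the proton pump, and Bcl2l15, of the BCL2 family, fell to log2 levels below the lower quartile of the arrays in both knockout mice, 4.86 and 4.73 for the first and 4.50 and 5.08 for the second. The size of their log2 differences of -1.75 ± 0.15 and -1.68 ± 0.15 is thus less certain. On all arrays of ductal progenitors and non-clonogenic luminal cells both lay below the lower quartile. Mal, a membrane protein of apical transport, was not called in alveolar progenitors (log2 difference -0.91 ± 0.28, adjusted p = 0.230), but it was called higher in ductal progenitors (1.64) and in non-clonogenic luminal cells (1.65), and the difference of effects was -1.92 ± 0.32 (adjusted p = 0.0336).

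Several large falls were found without a called difference from the other populations. St6gal1, a sialyltransferase of the Golgi, had log2 levels of 7.93 and 9.07 in wild type and 6.25 and 6.31 in knockout, a log2 difference of -2.22 ± 0.33 (adjusted p = 0.0113), and it was also called lower in ductal progenitors (-1.63). Nrm, a protein of the inner nuclear membrane, fell by 1.88 ± 0.30 on the log2 scale, from 7.94 and 7.98 to 6.08 and 6.08. Fam111a, a protease that binds PCNA, fell from 6.52 and 7.23 to 4.87 and 4.72, below the lower quartile in both knockout mice. The size of its log2 difference of -2.08 ± 0.33 is thus less certain. It was also called lower in the Sca1-positive luminal populations, with log2 differences of -2.74 and -2.84.

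Ion transport genes were among those that rose. Of 44 measured genes of ion, water and iodide transport, 4 were called higher and 0 lower, against 0.269% of all genes called higher. In this list 36 genes had a higher mean in knockout, with a median log2 difference of 0.18. It was chosen with earlier results of these data known, so its share is a description and no test. Clic6, of the chloride intracellular channel family, had log2 levels of 8.89 and 9.13 in wild type and 10.68 and 10.93 in knockout, a log2 difference of 1.79 ± 0.15 (adjusted p = 0.000216), and the pairs gave 1.80 and 1.79. Kcne3, an accessory subunit of potassium channels, rose from log2 levels of 6.50 and 6.89 to 9.17 and 8.06, a log2 difference of 1.92 ± 0.26 (adjusted p = 0.00548). Its partner channel Kcnq1 rose from 6.80 and 7.03 to 7.46 and 7.67, a log2 difference of 0.65 ± 0.12 (adjusted p = 0.0422). Scnn1b, the beta subunit of the epithelial sodium channel, went from 6.58 and 6.17 to 7.93 and 8.16 on the log2 scale, a log2 difference of 1.67 ± 0.19 (adjusted p = 0.00184). Its partner subunits Scnn1a and Scnn1g had log2 differences of 0.53 ± 0.34 and 0.23 ± 0.15 and did not pass. For Clic6, Kcne3 and Scnn1b the difference from the mean of the other populations was called, at 1.78 ± 0.17, 1.94 ± 0.29 and 1.23 ± 0.21, although Scnn1b was also called higher in ductal progenitors (1.0) and Kcne3 lay below the lower quartile on all non-clonogenic luminal and myoepithelial arrays.

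Foxi1, the forkhead factor known from proton-pumping cells of the kidney and inner ear, had log2 levels of 7.28 and 6.45 in wild type and 8.62 and 9.18 in knockout. It rose by 2.03 ± 0.22 on the log2 scale, or 4.10-fold (adjusted p = 0.00154), and the parent pairs gave 1.34 and 2.73. In the other populations its log2 level was 4.50 to 5.43, below the lower quartile on every non-clonogenic luminal and myoepithelial array. The difference of effects was 1.87 ± 0.25 (adjusted p = 0.00968), and against ductal progenitors alone 1.65 ± 0.30, which did not pass (adjusted p = 0.0536). In the list of FOXI1, the proton pump and acid-base transport, 1 of 30 measured genes was called higher and 1 lower. Of all genes, 0.269% were called higher and 0.351% lower. The median log2 difference of the list was 0.09, and its gene called lower was the pump subunit Atp6v1c2. Atp6v1b1, a pump subunit known in mouse kidney as a target of FOXI1, had log2 levels of 9.60 and 9.74 against 10.82 and 10.86 and lay just outside the threshold (log2 difference 1.17 ± 0.24, adjusted p = 0.0517).

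Secreted products of defence and inflammation were also among the rises, in lists likewise chosen with earlier results known. Of 33 measured acute phase and defence genes, 5 were called higher and 0 lower, against 0.269% of all genes called higher. The median log2 difference of this list was 0.12. It ranged from 0.027, with the second wild-type array left out, to 0.24, with the first wild-type mouse left out. Apod, a lipocalin that carries lipids, had log2 levels of 8.56 and 9.44 in wild type and 11.54 and 11.07 in knockout, a log2 difference of 2.30 ± 0.36 (adjusted p = 0.0145). Lrg1, an acute phase glycoprotein, rose from 9.09 and 8.43 to 10.55 and 10.72 (log2 difference 1.87 ± 0.34, adjusted p = 0.0300). The chitinase-like protein Chil1 rose from log2 levels of 9.49 and 10.06 to 11.51 and 11.22, a log2 difference of 1.59 ± 0.19 (adjusted p = 0.00316). Pigr, which carries immunoglobulin A across epithelium into milk, had log2 levels of 6.29 and 6.29 against 7.41 and 7.23, a log2 difference of 1.02 ± 0.11 (adjusted p = 0.00184). S100a8, a subunit of calprotectin, rose from log2 levels of 5.02 and 5.53 to 6.48 and 5.90, a log2 difference of 0.92 ± 0.18 (adjusted p = 0.0457). It is also a marker of neutrophils, whose other markers S100a9 and Csf3r had log2 differences of 0.04 ± 0.10 and 0.06 ± 0.10. The mean log2 level of all 23 leukocyte markers was 5.72 and 5.72 in wild type and 5.79 and 5.77 in knockout, and Cd68 was the marker with the next largest difference (0.89 ± 0.31, adjusted p = 0.326). The part of leukocytes in these values was not tested.

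Of 35 measured chemokine and cytokine genes, 2 were called higher and 1 lower, against 0.269% and 0.351% of all genes. The median log2 difference of the list was 0.07. Cxcl2, which draws neutrophils, had log2 levels of 7.82 and 7.24 in wild type and 10.09 and 9.63 in knockout, a log2 difference of 2.33 ± 0.44 (adjusted p = 0.0408), and it was also called higher in myoepithelial cells (2.32). Csf3, the granulocyte colony-stimulating factor, rose from 6.52 and 6.29 to 8.68 and 7.69, a log2 difference of 1.78 ± 0.27 (adjusted p = 0.0143). Il1rn, the antagonist of the interleukin 1 receptor, fell from log2 levels of 7.34 and 6.84 to 6.20 and 5.67, a log2 difference of -1.15 ± 0.19 (adjusted p = 0.0201). Cxcl1 and Cxcl5, of the same family as Cxcl2, had log2 differences of 1.73 ± 0.64 and 2.02 ± 0.59 and did not pass (adjusted p = 0.364 and 0.202). None of 28 measured NF-kB targets was called (median log2 difference 0.04). In the list of LIF, STAT3 and SOCS genes, 2 of 32 were called higher, Lrg1 and Fosl1, against 0.269% of all genes. A higher mean in knockout was found in 27 of the list, with a median log2 difference of 0.26. Fosl1, a partner of JUN in the AP-1 factor, had log2 levels of 9.09 and 8.33 against 10.37 and 10.00, a log2 difference of 1.47 ± 0.27 (adjusted p = 0.0348). It was the only gene called among 43 immediate early and dissociation stress genes, against 0.269% of all genes called higher. Of these 43 genes, 41 had a higher mean in knockout (median log2 difference 0.36). The last list responds to the handling of cells, and the part of handling in these values was not tested.

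The list of matrix genes gave 3 rises among 70 measured, against 0.269% of all genes called higher, with 0 called lower. Its median log2 difference was -0.0019, and 35 genes had a higher and 35 a lower mean in knockout. The list does not hold Cnmd and Fbn2, the matrix and microfibril genes described above, which were called lower. Prelp, a small proteoglycan that anchors basement membrane, had log2 levels of 8.78 and 7.84 in wild type and 10.92 and 10.23 in knockout, a log2 difference of 2.26 ± 0.42 (adjusted p = 0.0398). Snorc, a membrane proteoglycan known from cartilage, rose from log2 levels of 8.97 and 8.75 to 11.12 and 10.47, a log2 difference of 1.93 ± 0.25 (adjusted p = 0.00466). Papln, the matrix protein papilin, rose from 8.49 and 8.48 to 10.05 and 10.57 (log2 difference 1.82 ± 0.33, adjusted p = 0.0303) and was also called higher in ductal progenitors (1.49). The fibroblast matrix genes Lum and Dcn had log2 differences of 0.03 ± 0.66 and 0.39 ± 0.43, and 0 of the 13 fibroblast markers measured were called.

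Other large rises were of enzymes, transporters and signalling proteins. Klk11, a kallikrein serine protease, had log2 levels of 7.63 and 7.61 in wild type and 9.40 and 9.41 in knockout, a log2 difference of 1.78 ± 0.13 (adjusted p = 0.000216). Arhgef6, an exchange factor for Rac and Cdc42, rose from 8.13 and 8.33 to 9.92 and 10.15, a log2 difference of 1.81 ± 0.27 (adjusted p = 0.0113). Its effect differed from the mean effect of the other populations by 2.15 ± 0.30, but the contrast with myoepithelial cells alone did not pass (adjusted p = 0.157). Abcc3, an efflux pump for organic anions, and Osbpl3, an oxysterol-binding protein, had log2 differences of 1.54 ± 0.25 and 1.51 ± 0.19. Cyp2d22, a cytochrome P450, and the peptide hormone gene Cck had log2 differences of 1.36 ± 0.26 and 1.39 ± 0.17. For Maob, a monoamine oxidase, the direction differed between populations. Its log2 level rose from 5.68 and 5.39 to 7.12 and 6.96 in alveolar progenitors (1.5 ± 0.29, adjusted p = 0.0424), and it was called lower in myoepithelial cells, where it went from 8.06 and 7.64 to 6.65 and 5.48. Erbb4, a receptor for neuregulins that is known for its role in lactation, rose from log2 levels of 6.82 and 7.18 to 8.13 and 7.94 (1.03 ± 0.17, adjusted p = 0.0213). It was the 1 gene called among 17 measured genes of the EGF family (median log2 difference 0.09), against 0.62% of all genes.

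**Figure D4:**
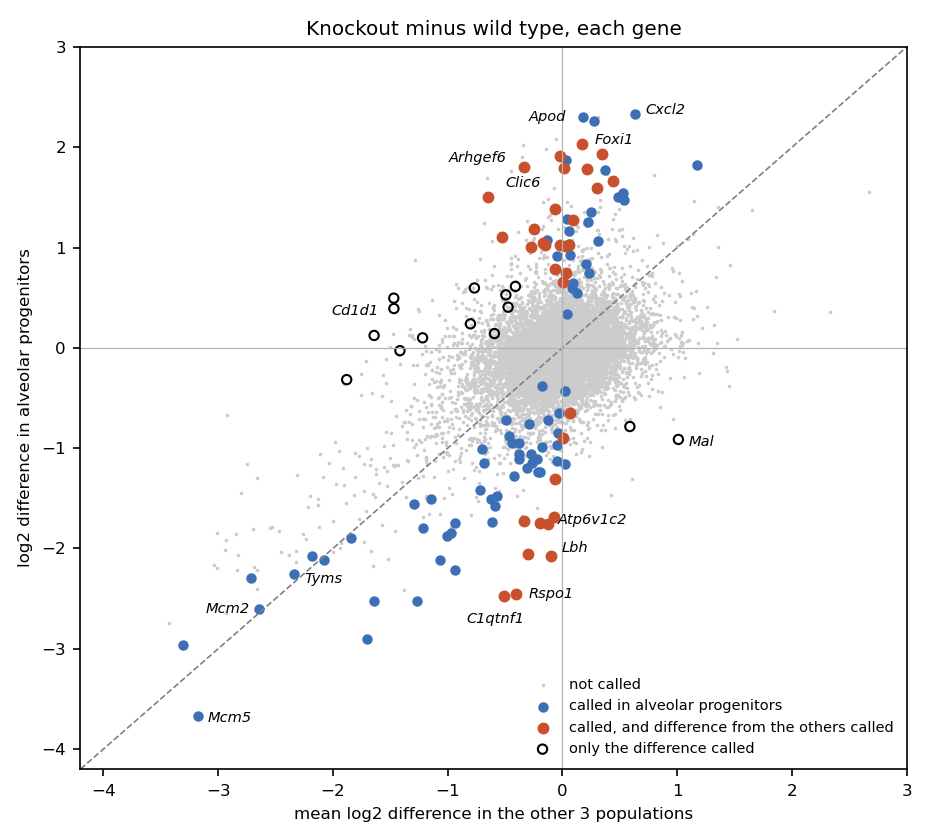
Log2 difference, knockout minus wild type, in alveolar progenitors (vertical) against the mean of the 3 other populations (horizontal) for each of 17097 genes. Blue points are called in alveolar progenitors, orange points are also called for the difference from the other populations, open circles are called for that difference only, and the dashed line marks equal effects. Mcm5, Mcm2 and Tyms were not called for the difference from the other populations, whereas Rspo1, C1qtnf1, Lbh, Foxi1 and Clic6 were, and of these C1qtnf1 and Rspo1 have mean effects of -0.51 and -0.40 in the other populations.

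In 14 of the 47 genes with a called difference of effects, the effect in alveolar progenitors was itself not called, and 12 of these had the higher effect in alveolar progenitors. Cd1d1, which presents lipid antigens, is an example. Its log2 level was 7.52 and 7.43 in wild type and 7.74 and 7.99 in knockout in alveolar progenitors (0.39 ± 0.19, adjusted p = 0.566). In non-clonogenic luminal cells it was 10.05 and 9.84 against 7.85 and 7.28, and in ductal progenitors 9.67 and 9.55 against 7.60 and 7.53. The difference of effects of 1.86 ± 0.22 (adjusted p = 0.00424) thus came from a fall in those populations. Cp, the copper protein ceruloplasmin of the acute phase list, had a log2 difference of 0.50 ± 0.29 in alveolar progenitors and of -3.0 in non-clonogenic luminal cells, and Lcn2, a siderophore-binding lipocalin of the same list, had 0.24 ± 0.17 and -2.46. Cd55, Aass and Fam47e were called in both tests and rose in alveolar progenitors, with differences elsewhere that did not pass. Cd55, which protects cells from complement, rose by 1.10 ± 0.19 on the log2 scale (adjusted p = 0.0238) and had log2 differences of -0.73, -0.59 and -0.26 in the other populations. Aass, an enzyme of lysine breakdown, rose from log2 levels of 5.55 and 5.92 to 6.74 and 6.82, a log2 difference of 1.05 ± 0.14 (adjusted p = 0.00474). Fam47e passed both tests with a log2 difference of 0.66 ± 0.06, but its log2 level lay between 3.97 and 4.70 on the 4 arrays, below the lower quartile throughout.

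The genes called in alveolar progenitors overlapped in part with those called elsewhere, and the populations share their mice. Of the 60 genes that fell in alveolar progenitors, 17 were also called lower in non-clonogenic luminal cells, 24 in ductal progenitors and 7 in myoepithelial cells. Of the 46 that rose, 0, 4 and 2 were also called higher there. Calls in all were 353, 1272 and 173 of the 17097 genes tested in these populations. The genes called in both, in either direction, made up 16%, 27.4% and 9.43% of the 106 for alveolar progenitors. Counted the other way, the same genes made up 4.82%, 2.28% and 5.78% of the calls of the other population. Of all genes tested, 0.62% were called in alveolar progenitors. The shared rises were Abcc3, Klk11, Papln and Scnn1b in ductal progenitors and, in myoepithelial cells, Cxcl2 and Spag9, a JNK scaffold protein named here after its values were seen. A called change in the opposite direction was found for 1 gene in ductal progenitors and 1 in myoepithelial cells. In 70 of the 106 genes no other population passed the test.

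Several lists that bear on the study's question held no called gene. Of 14 measured genes of RANKL and the progesterone axis, 0 were called, with a median log2 difference of 0.0052. Tnfsf11, which encodes RANKL, had log2 levels of 5.13 and 5.19 in wild type and 5.37 and 5.32 in knockout with the brighter of its probe sets (0.19 ± 0.14). With the other it had 3.87 and 3.89 against 3.87 and 3.83. The lower quartile of these arrays was 5.10 to 5.14, so a fall of the ligand's RNA could hardly be read in these cells. The gene of the RANKL receptor, Tnfrsf11a, had a log2 difference of -0.03 ± 0.23. None of 23 measured milk genes was called (median log2 difference 0.02). Lalba, which encodes alpha-lactalbumin, had log2 levels of 6.68, 6.61 and 7.17 in 3 of the mice and 10.71 in knockout mouse 2, and its log2 difference of 2.30 ± 0.82 did not pass (adjusted p = 0.330). Csn1s1, a casein gene, had 7.58 and 7.63 in wild type against 5.25 and 7.02, with knockout mouse 1 the lower (-1.47 ± 0.42, adjusted p = 0.199). Of 23 measured hormone-sensing markers, 0 were called, and their median log2 difference was -0.04 in pair 1 and 0.42 in pair 2. Genes of Notch signalling (23 measured), glycolysis and hypoxia (27), the unfolded protein response (33), the interferon response (32) and the circadian clock (17) also gave 0 calls, with median log2 differences of 0.05, -0.09, 0.09, -0.22 and 0.24. The sort antigens Epcam, Itga6 (CD49f) and Itga2 (CD49b) had log2 differences of 0.13 ± 0.09, -0.09 ± 0.21 and 0.23 ± 0.24.

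Mitochondrial genes were slightly lower with 0 calls. Of 71 measured genes of oxidative phosphorylation, 63 had a lower mean in knockout, with a median log2 difference of -0.23, and of 70 mitochondrial ribosomal protein genes 64 did, with a median of -0.29. For cholesterol and fatty acid synthesis the median log2 difference over 34 genes was -0.32, but it was -0.66 in pair 1 and -0.02 in pair 2, and 0 were called. In the list of the poly(A) machinery, which CPEB proteins engage, the median log2 difference was -0.05. There 1 of 33 measured genes was called, against 0.62% of all genes. That gene was Cnot9, a subunit of the CCR4-NOT deadenylase, which went from log2 levels of 8.03 and 8.19 to 7.10 and 7.23, a log2 difference of -0.94 ± 0.18 (adjusted p = 0.0422). It was also called lower in ductal progenitors (-0.87).

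**Figure D5:**
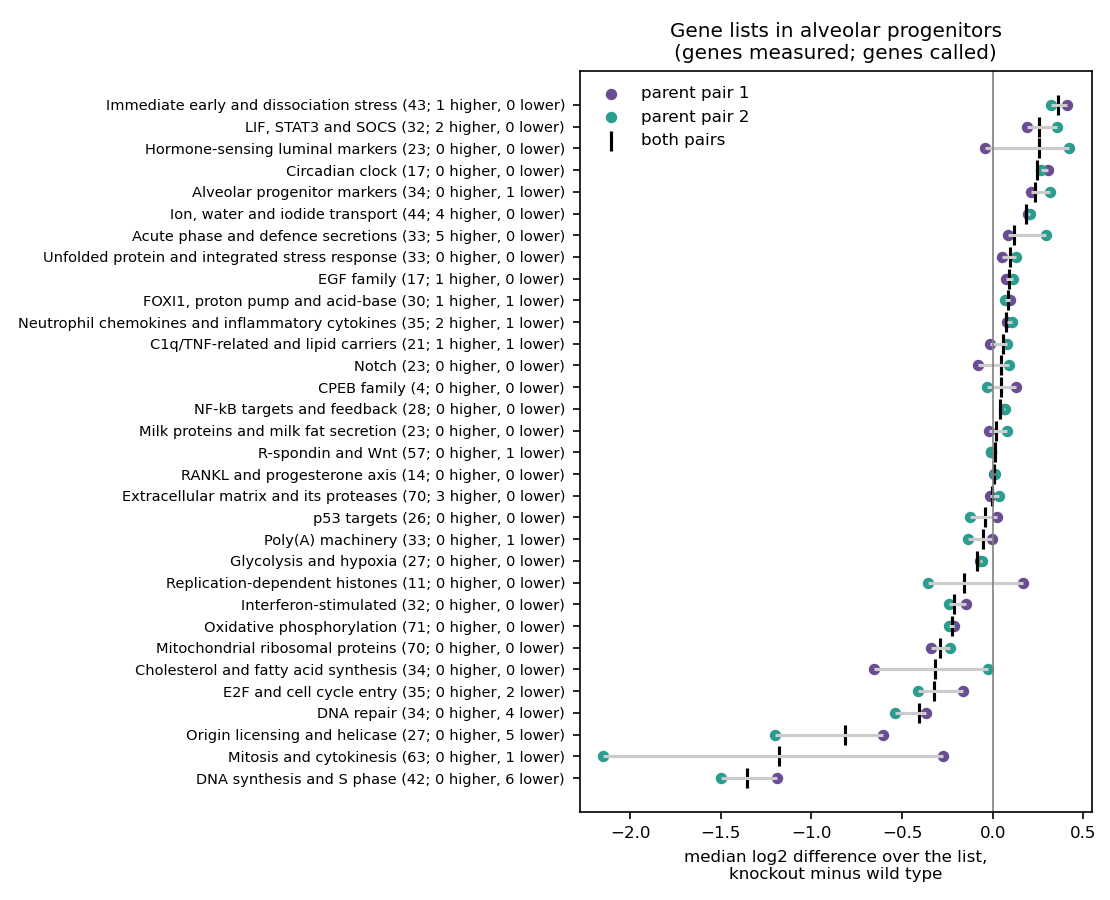
Median log2 difference, knockout minus wild type, of each gene list in alveolar progenitors, with the medians in parent pair 1 and parent pair 2 beside that of both pairs. The lists of DNA synthesis, mitosis and origin licensing lie farthest below 0, at -1.35, -1.18 and -0.81, and the pairs lie farthest apart for mitosis.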

How the data were processed

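The deposited values were used as given: log2 expression per probe set for 45141 probe sets on 16 arrays, for which the submitters' processing notes name RMA and limma without role or version. Per the labels' protocols, 15 ng of Trizol-extracted RNA was amplified (TransPlex WTA2) and 8 µg of cDNA was labelled. Their background correction and filters are not stated in what was used here. Probe sets were named through the platform annotation, which gave 1 symbol for 28898, and 104 controls were left out. A gene was represented by the probe set whose mean over the 16 arrays was highest, which gave 17097 genes, 7180 of them with several probe sets.

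All arrays entered 1 limma fit (3.58.1, R 4.3.3, statmod 1.5.0) with 8 group means, the mouse as a random block (consensus correlation 0.0383) and eBayes with a trend, which left 8 residual degrees of freedom and added 3.90 from the prior. Genes with p under 0.05 after Benjamini-Hochberg adjustment over the whole table were called. Probe sets were fitted likewise. Differences of effects were contrasts in that fit. The labels pair mice by shared parents, and deviations from the group means of mice with the same parents correlated at r = 0.0727 over probe sets, with 2 pairs. The fit was also run on simulated data, and that outcome is not reported here. A gene was taken as dim where its level lay under an array's lower quartile.

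The members, gene lists and naming rule were chosen with earlier results of these data known. The text names the CPEB family and sort antigens, up to 20 rises and 20 falls by size among called genes without overlap and with the same sign in both pairs, up to 10 genes in each direction by smallest p for the difference of effects, and list members. Symbols not established were counted only. Sca1 was not analysed here. Promoter windows are RefSeq's. Alternatives covered the parent pair as a block, the 4 arrays alone, no mouse block, no trend, array weights, quantile normalization, dim genes left out, the mean of probe sets, and each array or mouse left out.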

Additional observations from a re-analysis of the deposited data

Results flagged for a closer look

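For 47 genes the knockout effect in alveolar progenitors differed from the mean effect in the other 3 populations by a test of the difference itself (limma contrast, adjusted p under 0.05), and each value here is that difference of log2 effects with its standard error. The genes are named because they passed this test, several of them after their values were seen.

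Of the 22 genes that rose in alveolar progenitors and had the higher effect there, the larger differences of effects were those of Maob (2.15 ± 0.33), Arhgef6 (2.15 ± 0.30), Kcne3 (1.94 ± 0.29), Foxi1 (1.87 ± 0.25), Clic6 (1.78 ± 0.17), Cd55 (1.63 ± 0.22), Snorc (1.59 ± 0.29), Klk11 (1.57 ± 0.15), Cck (1.46 ± 0.20), Naaladl2 (1.42 ± 0.20) and Chil1 (1.29 ± 0.22). The smaller ones were those of Nqo1 (1.28 ± 0.18), Scnn1b (1.23 ± 0.21), Aass (1.22 ± 0.16), Anxa9 (1.19 ± 0.21), Erbb4 (1.18 ± 0.20), Pigr (1.04 ± 0.13), Bglap (0.98 ± 0.16), Cd55b (0.97 ± 0.17), Meltf (0.85 ± 0.15), Paqr6 (0.71 ± 0.12) and Fam47e (0.65 ± 0.06). Another 12 had the higher effect in alveolar progenitors without being called in them, which were Cp (1.97 ± 0.33), Cd1d1 (1.86 ± 0.22), Ripply3 (1.76 ± 0.27), Idh1 (1.56 ± 0.24), Olfm1 (1.39 ± 0.22), Ggh (1.36 ± 0.21), Tmtc4 (1.32 ± 0.20), Lcn2 (1.04 ± 0.19), Lpcat2 (1.02 ± 0.17), Il15 (1.02 ± 0.18), Asah2 (0.88 ± 0.16) and Klk1b1 (0.74 ± 0.12).

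Of the 11 genes that fell in alveolar progenitors and had the lower effect there, the differences of effects were those of Rspo1 (-2.05 ± 0.22), Lbh (-1.97 ± 0.30), C1qtnf1 (-1.96 ± 0.24), Adgrl1 (-1.75 ± 0.25), Atp6v1c2 (-1.63 ± 0.17), Bcl2l15 (-1.61 ± 0.17), Shisa2 (-1.55 ± 0.27), Fbn2 (-1.39 ± 0.25), Cnmd (-1.24 ± 0.13), Panx1 (-0.91 ± 0.16) and Epop (-0.72 ± 0.13). The 2 genes with the lower effect that were not called in alveolar progenitors were Mal (-1.92 ± 0.32) and Mapk12 (-1.37 ± 0.25). With the parent pair as a block the test called 34 genes in place of 47. Without knockout mouse 1 it called 3, without knockout mouse 2 it called 4 and without wild-type mouse 2 it called 192.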

How the results depend on the processing

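No called gene turned its direction under any alternative. Where arrays are left out or the model is changed, the lack of overlap fixes this, so it is no sign of stability. Quantile normalization and the mean of probe sets change the values themselves, and the direction was not fully fixed there. The 106 genes called became 110 with the parent pair as a replicate block (98 of the 106 among them), 80 with the 4 alveolar arrays alone (41 of the 106 among them, and 21 higher in place of 46), 114 with both of these changes (54 of the 106), 107 without the mouse block, 98 without the variance trend, 96 after quantile normalization, 100 without dim genes and 108 with the mean of probe sets. Array weights gave 389 genes, 563 probe sets in place of 143, 84 in place of 47 for the difference from the mean of the other populations, 97 in place of 41 against ductal progenitors and 70 in place of 44 against non-clonogenic luminal cells. The 4 arrays alone called 62 probe sets, and 71 with the replicate block in addition. The mean of probe sets gave 41 genes against myoepithelial cells in place of 27. The cause of these shifts was not tested.

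Leaving out 1 alveolar array at a time gave 39 to 68 genes, 52 to 132 probe sets, 14 to 41 genes for the difference from the mean of the other populations, 3 to 18 against ductal progenitors, 14 to 41 against non-clonogenic luminal cells and 16 to 26 against myoepithelial cells, where a lone array is assumed to vary like the other groups. With WT1 and WT2 for the wild types of parent pairs 1 and 2, and KO1 and KO2 for the knockouts, the 106 genes became 54 without the array WT1, 43 without WT2, 39 without KO1 and 68 without KO2. Leaving out all 4 arrays of a mouse moved the counts further. Without mouse WT1, they were 315 genes, 532 probe sets, 30 for the difference from the mean, and 10, 34 and 101 against ductal progenitors, non-clonogenic luminal cells and myoepithelial cells in that order. Without mouse WT2, the same counts were 119, 178, 192, 1340, 264 and 17. Without mouse KO1 they were 3, 1, 3, 6, 7 and 6. Without mouse KO2 they were 23, 17, 4, 0, 3 and 8. At an unadjusted p under 0.05 the fit without mouse KO1 held 703 genes, against 1624 with it. The 0 against ductal progenitors stood beside 1680 genes at an unadjusted p under 0.05 in limma. The median of the mitosis list was -0.39 without the alveolar array WT2 and -1.99 without mouse WT1, while that of the DNA synthesis list lay between -1.58 and -1.18. Those of the cell cycle entry, alveolar marker, cholesterol and interferon lists ranged from -0.42 to -0.14, 0.11 to 0.31, -0.52 to -0.18 and -0.44 to 0.02 over the alternatives. With the mean of probe sets, the log2 differences of Mcm5, Tyms, Adgrl1, Fancg, Plb1 and Cd55b shrank by over 1.5 times, and Tyms, Fancg and Plb1 did not pass.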
